A study of Mus musculus with 41 samples.

Results

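*PDGFA* and *Ctgf* are the 2 rows chosen here by name, ignoring case, from a Ct table of 54 mouse target genes measured by TaqMan qPCR in skin explants of 41 mice. The level of a gene in a mouse is its 18S ribosomal RNA (*Rn18s*) Ct minus the Ct of the gene, so that a difference of 1 is a doubling, and the level relative to sham is this value minus the mean of the sham mice of the same week. All mice were female NSG mice, an immunodeficient strain without mature T, B or NK cells. At 1 week, 7 mice were sham controls, 6 had received P, a cell-free degradable mesh of electrospun nanofibres made of a copolymer of lactic acid and caprolactone, and 7 had received P+eMSC, the same mesh with SUSD2+ human endometrial mesenchymal stem/stromal cells labelled with mCherry. At 6 weeks these groups held 6, 8 and 7 mice. The eMSC came from biopsies of several women, and the labels do not link a cell line to a mouse. Per the methods, each animal carried mesh in a pair of pockets under the abdominal skin, and some animals had also served in an earlier study. The labels give neither ages nor surgery dates.

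*PDGFA* (mouse *Pdgfa*, chromosome 5, 138976014 to 139000792 in GRCm38.p6) encodes the A chain of platelet-derived growth factor, a ligand that binds PDGF receptor alpha on fibroblasts and other mesenchymal cells and drives their migration and division. In skin, epidermal and immune cells are known sources of the ligand, and dermal fibroblasts carry the receptor. *Ctgf* (now *Ccn2*, chromosome 10, 24595442 to 24598683) encodes connective tissue growth factor, a secreted matricellular protein made by fibroblasts and endothelial cells. It is known as a target of TGF-beta/SMAD and of YAP/TAZ-TEAD signalling, and as a gene of scar formation and of the capsule around implants. In explants of whole tissue, fewer cells that express a gene and less RNA of it per cell cannot be told apart.

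The sequence before the transcription start of *Pdgfa* is shown as the place where motifs of factors known to act on growth factor genes were searched. That of *Ccn2* is not shown. The RefSeq promoter table used here holds 2 starts of *Pdgfa*, at 138994944 and 138994281. Both lie inside the annotated gene, which on its minus strand begins 5848 bases further upstream than the first of them, so the sequence shown lies within the gene as annotated. The 250 bases before the start at 138994944 are printed 5′ to 3′ on the minus strand of GRCm38.p6, with capitals on the matches to the SP1 motif GGGCGG on either strand.
*Pdgfa*, chr5:138994945-138995194: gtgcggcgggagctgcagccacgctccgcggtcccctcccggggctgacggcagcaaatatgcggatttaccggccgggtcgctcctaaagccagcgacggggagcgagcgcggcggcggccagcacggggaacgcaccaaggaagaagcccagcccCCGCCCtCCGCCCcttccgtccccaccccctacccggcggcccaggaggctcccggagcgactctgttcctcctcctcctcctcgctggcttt
The window held 2 SP1 matches, and 32.7% of all 32851 promoter windows of this length held at least 1. The TEAD motif GGAATG, the SMAD motif GTCTG, the AP-1 motif TGANTCA and the TATA motif TATAAA, searched on both strands, had 0 matches in it and were in 12.6%, 42.2%, 6.75% and 12.4% of all windows. These matches are letters in a sequence. The qPCR did not measure binding or the choice of start.

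Both genes were detected in 40 of the 41 mice, with Ct values between 14.5 and 21.1. The exception was mouse 52 of P at 6 weeks, in which 31 of the 54 genes were undetected. Its 18S Ct, 7.79, was the highest of all mice. Each value of *PDGFA* and *Ctgf* in P at 6 weeks therefore rests on 7 mice. Mouse 52 was kept for the 23 target genes detected in it and for 18S, whose values rest on 8 P mice. Mouse 2356, also labelled P at 6 weeks, has deposited fold changes of both genes that equal those calculated against the 1 week sham mean. It was kept as labelled, with its level set against the 6 week sham mean. The panel median, the median Ct of the 23 target genes detected in all 41 mice, served as a second reference. Neither *PDGFA* nor *Ctgf* is among these 23 genes. They were taken for being detected, not for stable expression, and several of them were themselves called at 6 weeks. This reference removes a change that they share, and it cannot tell such a change from one of 18S.

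Within each week, with 18S as the reference, the median of *PDGFA* was lowest in the mice with P alone. With the panel median as the reference, 5 of 7 mice lay below the 6 week sham mean in P and in P+eMSC alike. With 18S, *PDGFA* at 6 weeks lay between -0.65 and 0.99 (log2, relative to the sham mean) in the 6 sham mice, with a median of -0.17. In the 7 P mice it lay between -2.63 and -0.51, with a median of -0.99, and in the 7 P+eMSC mice between -1.69 and 0.81, with a median of -0.43. All 7 P mice were below the sham mean and 6 of them below the lowest sham mouse, while the P+eMSC mice lay on both sides of the sham mean, 4 below and 3 above. At 1 week the 7 sham mice lay between -0.92 and 0.89 with a median of -0.083, the 6 P mice between -2.09 and -0.22 with a median of -1.07, and the 7 P+eMSC mice between -1.86 and 0.79 with a median of -0.74. All 6 P mice were again below the sham mean, and no groups were fully apart at either week.

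*Ctgf* varied more from mouse to mouse. At 6 weeks it lay between -1.70 and 1.21 in the sham mice (median 0.027), between -2.39 and -0.084 in the P mice (median -1.04) and between -1.20 and 2.32 in the P+eMSC mice (median 0.30). Of the 6 sham mice, 5 lay above every P mouse, the nearest of them by less than 0.01, and 1 sham mouse was as low as the P mice. At 1 week the range was -2.55 to 1.92 in the sham mice (median 0.61), -2.83 to 1.20 in the P mice (median -1.31) and -4.02 to 1.05 in the P+eMSC mice (median -0.81). The P mice at 1 week fell to either side of the sham mean, with 4 below and 2 above. The lowest *Ctgf* value of all, in mouse 78 of P+eMSC at 1 week, was -4.02 with 18S as the reference and -0.98 with the panel median, and 6 of the 54 genes were undetected in this mouse.

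**Figure D1:**
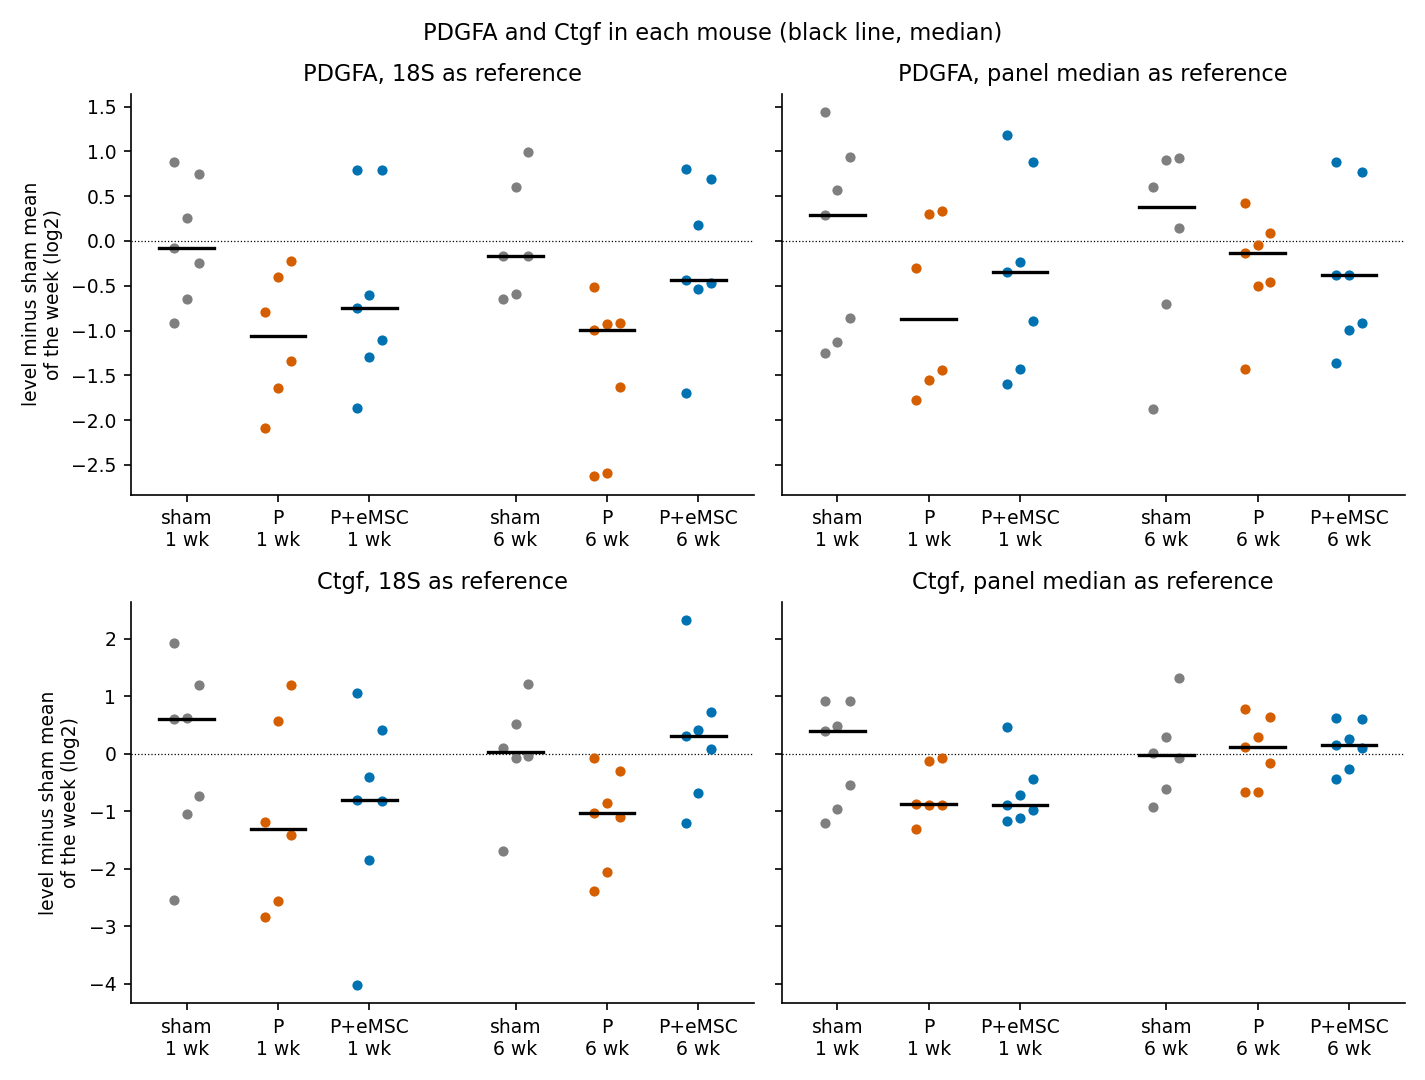
Level of *PDGFA* (top) and *Ctgf* (bottom) in each mouse (points) minus the sham mean of the week (log2), with 18S (left) or the panel median (right) as the reference, and the median of each group as a black line. With 18S all P mice at 6 weeks lie below the dotted sham mean for both genes, and with the panel median 5 of 7 do for *PDGFA* and 3 of 7 for *Ctgf*.

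Whether the mesh alone changed the genes was read from P against sham. At 6 weeks *PDGFA* fell in P by 1.48 (log2, Hodges-Lehmann shift, 95% interval -2.46 to -0.34), which is 2.79-fold (exact Mann-Whitney p = 0.00466, adjusted p = 0.0551 over the 54 genes). *Ctgf* fell by 1.04 (-2.32 to -0.041), or 2.06-fold (exact p = 0.0221, adjusted p = 0.0997), but with the panel median as the reference its shift was 0.14, the other way (exact p = 0.836). With that reference the *PDGFA* shift was -0.56 (exact p = 0.366). Both calls rest on the threshold of 0.0513 that the methods state, and neither gene passed an adjusted p of 0.05. The panel moved with them: 25.9% of the 54 genes were called in this comparison, all 14 of them lower in P (set against the panel median, 7 genes were called and each of them was higher), the median shift over all genes was -0.83, and the 18S Ct minus the panel median Ct shifted by -1.39 (exact p = 0.0293). The 18S Ct itself was 0.29 higher in P than in sham (exact p = 0.0813). Both 18S tests kept mouse 52. With this mouse left out, 14 genes were called and the median shift over all genes was -0.63. The shift of *PDGFA* ranked 3 of 54 by its exact p and that of *Ctgf* ranked 11. In the mice numbered below 1000 the shifts were -1.96 for *PDGFA* and -1.75 for *Ctgf*, and in those numbered above 2000 they were -1.48 and -0.11, from 3 P and 2 sham mice. What these animal number series stand for is not given in the sources used here. Without mice 52 and 2356 both genes were still called (-1.51 and -1.10, exact p = 0.00866 and 0.0260). Since mouse 52 has no value of either gene, this check removed only mouse 2356. In limma over all 6 groups, *PDGFA* passed the same unadjusted threshold (adjusted p = 0.128) and *Ctgf* did not (adjusted p = 0.330).

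At 1 week 5.56% of genes were called between P and sham, namely *PDGFA*, *Vegfa* and *Tgfb3*, all lower in P, while with the panel median 3 genes were called, all of them higher. *PDGFA* fell by 1.10 (-2.08 to -0.14), or 2.14-fold (exact p = 0.0350, adjusted p = 0.791). The median shift over all 54 genes was -0.10. The call did not hold with the panel median (-0.61, exact p = 0.181), in limma (-1.08, p = 0.0864) or when any of 7 single mice was left out, which were mice 132, 133 and 2355 of P and mice 2269, 125, 400 and 2354 of sham (shifts from -1.25 to -0.97 over all 13 such fits). The shift was -1.52 in the mice numbered below 1000 (2 P and 5 sham) and -1.20 in those numbered above 2000 (4 P and 2 sham). The *Ctgf* shift was of like size, -1.03, but its interval ran from -3.34 to 1.31 (exact p = 0.181), and it reached the threshold only without mouse 2268 of P (-1.80, exact p = 0.0480).

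P+eMSC did not separate from sham at either week. At 6 weeks the shift was -0.22 (-1.42 to 0.86) for *PDGFA* and 0.21 (-1.13 to 2.0) for *Ctgf* (exact p = 0.945 and 0.731), and 0% of the 54 genes were called. The 18S Ct itself was 0.32 higher in P+eMSC than in sham (exact p = 0.0140). In the mice numbered below 1000 (2 P+eMSC and 4 sham) the 6 week shifts were -1.07 for *PDGFA* and -0.54 for *Ctgf*, and in those numbered above 2000 (5 and 2) they were -0.10 and 1.14, so that *Ctgf* ran in opposite directions in the 2 series. At 1 week the shifts over all mice were -0.64 (-1.63 to 0.53) and -1.02 (-2.75 to 1.16) (exact p = 0.259 and 0.318), again with 0% of genes called. These intervals still hold differences of more than 1 on the log2 scale. At 1 week *PDGFA* passed the threshold when ranks were permuted within the number series (-0.90, exact p = 0.0476). In that comparison the lower-numbered mice gave -1.03 and the higher-numbered mice -0.091.

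The comparison that the methods state, P+eMSC against P, asks whether the cells changed the response to the mesh. At 6 weeks both genes rose against 18S but not against the panel median. Of the genes of that median, *Mmp2*, *Tgfb3*, *Tgfbr1*, *Timp3*, *Vegfa*, *Itgb1* and *Ccl11* were also called higher against 18S. A rise shared with them would not show against it. With 18S as the reference *PDGFA* was 1.17 higher in P+eMSC (0.38 to 2.20), a 2.26-fold difference (exact p = 0.0175, adjusted p = 0.158), but with the panel median its shift was -0.25 (exact p = 0.902). *Ctgf* was 1.27 higher (0.17 to 2.69), a 2.42-fold difference (exact p = 0.0262, adjusted p = 0.177), and with the panel median its shift was 0.031 (exact p = 1). For each gene 5 of the 7 P+eMSC mice lay above the highest P mouse. In this comparison 18.5% of genes were called, all 10 of them higher in P+eMSC, and 8 were called without mouse 52. The median shift of the 54 genes was 1.15, so the shifts of *PDGFA* and *Ctgf* were close to that of the panel. Without mouse 52, which has no value of either gene, this median was 0.99, somewhat below both shifts. The 18S Ct minus the panel median Ct shifted by 1.41 (exact p = 0.0401), while the 18S Ct itself shifted by 0.022 (exact p = 0.867). Both of these tests kept mouse 52, whose 18S Ct minus panel median Ct was the lowest of P, -16.9. They were not repeated without this mouse. In the mice numbered below 1000 (2 P+eMSC and 4 P) the shifts were 0.73 for *PDGFA* and 1.20 for *Ctgf*, and in those numbered above 2000 (5 and 3) they were 1.16 and 1.27. Both genes stayed called when any single mouse was left out, with shifts from 1.09 to 1.46 and from 1.14 to 1.43. Leaving out mice 52 and 2356, of which only mouse 2356 has values of these genes, gave 1.14 and 1.35 (exact p = 0.0221 and 0.0350). In limma *PDGFA* passed the unadjusted threshold (1.25, adjusted p = 0.147) and *Ctgf* did not (1.40, adjusted p = 0.193). At 1 week the shifts were 0.44 (-0.71 to 1.59) for *PDGFA* and 0.44 (-2.03 to 2.25) for *Ctgf* (exact p = 0.445 and 0.836), with 0% of genes called.

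**Figure D2:**
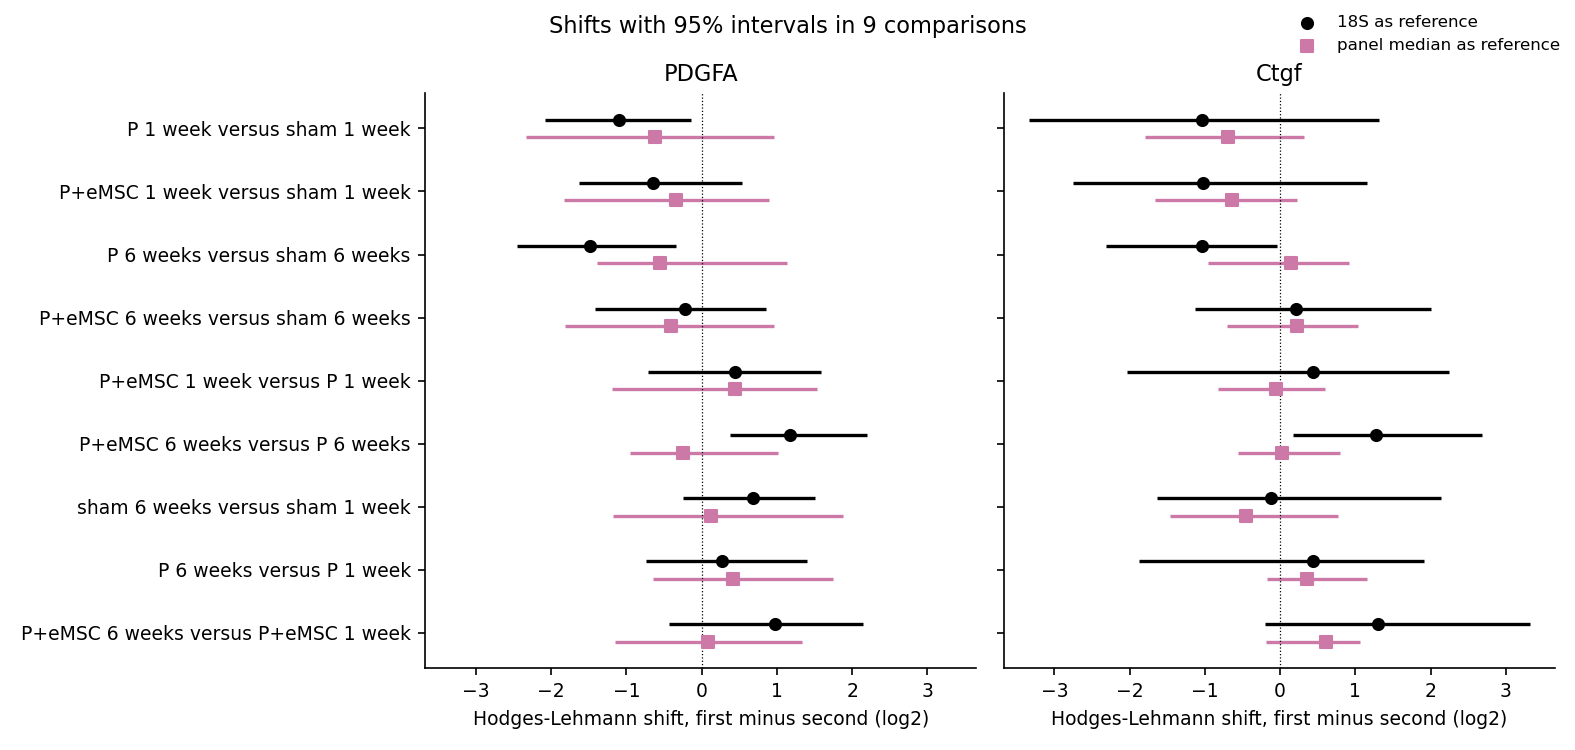
Hodges-Lehmann shift (log2, first group minus second) with its 95% interval for *PDGFA* and *Ctgf* in 9 comparisons, with 18S (black circles) or the panel median (pink squares) as the reference. With 18S the intervals leave out 0 for *PDGFA* in P against sham at both weeks and for both genes in the 6 week comparisons of P with sham and with P+eMSC, and with the panel median every interval holds 0 and 3 shifts change sign, those of *Ctgf* in P against sham at 6 weeks and in P+eMSC against P at 1 week and that of *PDGFA* in P+eMSC against P at 6 weeks.

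Across time, different mice were compared at 6 and 1 weeks within a treatment. In the sham mice *PDGFA* shifted by 0.69 (-0.25 to 1.51) and *Ctgf* by -0.12 (-1.63 to 2.14) (exact p = 0.138 and 1), and the 3.7% of genes called there were *Tgfb2* and *Tgfb3*. In P the shifts were 0.27 (-0.74 to 1.39) and 0.43 (-1.88 to 1.92) (exact p = 0.534 and 0.731), with 0% of genes called. In P+eMSC they were 0.98 (-0.43 to 2.14) and 1.30 (-0.21 to 3.32) (exact p = 0.0728 and 0.165), also with 0% called, beside a median shift over all genes of 0.88. *PDGFA* in P+eMSC passed the threshold without mouse 60 at 6 weeks or without mouse 2358 or 2350 at 1 week (1.38 and exact p = 0.0350 in each), and *Ctgf* without mouse 2358 (1.33, exact p = 0.0513). Whether a difference between treatments changed from 1 to 6 weeks was tested as an interaction in limma. The largest interaction was that of *Ctgf* in P+eMSC against P, 1.28 ± 1.12 (SE, adjusted p = 0.504), and for *PDGFA* it was 0.74 ± 0.85 (adjusted p = 0.550). The interactions with sham were -0.37 ± 0.87 and -0.078 ± 1.14 for P, and 0.37 ± 0.85 and 1.20 ± 1.12 for P+eMSC, for *PDGFA* and *Ctgf* in that order. At an adjusted p below 0.05, 0% of genes were called for any interaction, and none had an unadjusted p below 0.05, so the rise at 6 weeks was not shown to differ from the difference at 1 week.

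Ordered by their median level (18S Ct minus gene Ct), the groups ran for *PDGFA* from P at 1 week (-10.7) over P+eMSC at 1 week (-10.4), P at 6 weeks (-9.94), sham at 1 week (-9.70) and P+eMSC at 6 weeks (-9.38) to sham at 6 weeks (-9.12). For *Ctgf* they ran from P at 1 week (-11.4) over P at 6 weeks (-11.0), P+eMSC at 1 week (-10.9), sham at 6 weeks (-9.92) and P+eMSC at 6 weeks (-9.65) to sham at 1 week (-9.53). Between neighbours in either order the exact Mann-Whitney p was 0.0728 or more, so no step passed the threshold of 0.0513. The order depends on the median. By the mean level of *Ctgf*, sham at 1 week (-10.1) lay below sham at 6 weeks (-9.95) and P+eMSC at 6 weeks (-9.67). Levels of the 2 genes cannot be set against each other, since the assays may differ in efficiency.

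The plot of all genes shows where the 2 growth factors stood in the panel. *PDGFA* and *Ctgf* lay below the median gene in P against sham at both weeks. In P+eMSC against P at 6 weeks they lay close to it, and somewhat above it without mouse 52.

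**Figure D3:**
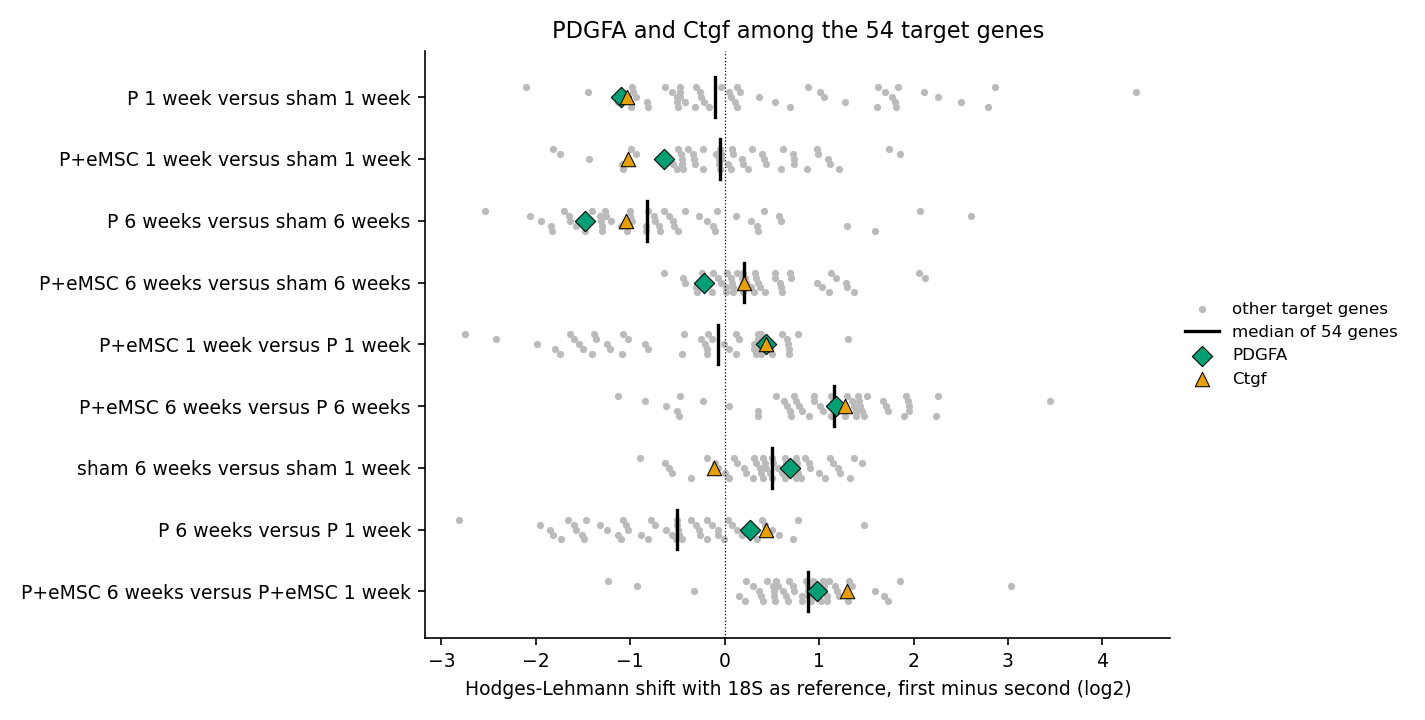
Hodges-Lehmann shift (log2, 18S as the reference) of each of the 54 target genes (grey points), their median (black bar), *PDGFA* (green diamonds) and *Ctgf* (orange triangles) in 9 comparisons. In P+eMSC against P at 6 weeks *PDGFA* (1.17) and *Ctgf* (1.27) lie beside the panel median of 1.15, and with the panel median as the reference these shifts are -0.25 and 0.031.

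The balance of the 2 genes within a mouse does not depend on the reference, since 18S cancels in *PDGFA* Ct minus *Ctgf* Ct. Its median was -0.21 in sham, -0.59 in P and -0.75 in P+eMSC at 1 week, and -1.28, -0.57 and -0.45 at 6 weeks. It spread from -1.18 to -0.24 in the P mice at 6 weeks, the narrowest group (SD 0.38, n = 7), and from -2.42 to 1.64 in the sham mice at 1 week (SD 1.53, n = 7). No comparison of groups passed the test, with shifts from -0.50 to 0.56 and an adjusted p of 1 in all 9. The intervals of these shifts were wide, -0.71 to 0.96 for P+eMSC against P at 6 weeks and -1.23 to 1.57 for P against sham. Equal change of the 2 genes is therefore not shown.

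With both genes set against 18S, the deviations of *PDGFA* and *Ctgf* from their group means were correlated over all mice, but not alike in every group. These deviations from the group means correlated over 40 mice with Pearson r = 0.52 (permutation p = 0.00049) and Spearman rho = 0.49 (permutation p = 0.00143). Such a value was common in the panel. Among 53 genes *Ctgf* ranked 21 by its r with *PDGFA*, beside a median of 0.49, and *PDGFA* ranked 41 by its r with *Ctgf*, beside a median of 0.62. Within single groups of 6 or 7 mice, given without a test, r lay between 0.62 and 0.90 in the 4 groups with mesh and was 0.22 in sham at 1 week and -0.22 in sham at 6 weeks. Without the 2 mice farthest from the *PDGFA* median r was 0.50. In the mice numbered below 1000 r was 0.43 (n = 21, permutation p = 0.0499), and in those numbered above 2000 it was 0.70 (n = 19, permutation p = 0.00097). The points share the 18S Ct and the cDNA of the mouse. With the panel median as the reference the relation over all mice was no longer there (r = 0.024, permutation p = 0.883), although r was still 0.79 in the 7 P mice at 6 weeks and ranged from -0.59 to 0.40 in the other groups. The 2 genes also took the change of reference differently. The pooled SD within groups went from 0.82 to 0.96 for *PDGFA* and from 1.33 to 0.64 for *Ctgf*, so that *Ctgf* varied less around the panel median than around 18S and *PDGFA* varied slightly more.

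**Figure D4:**
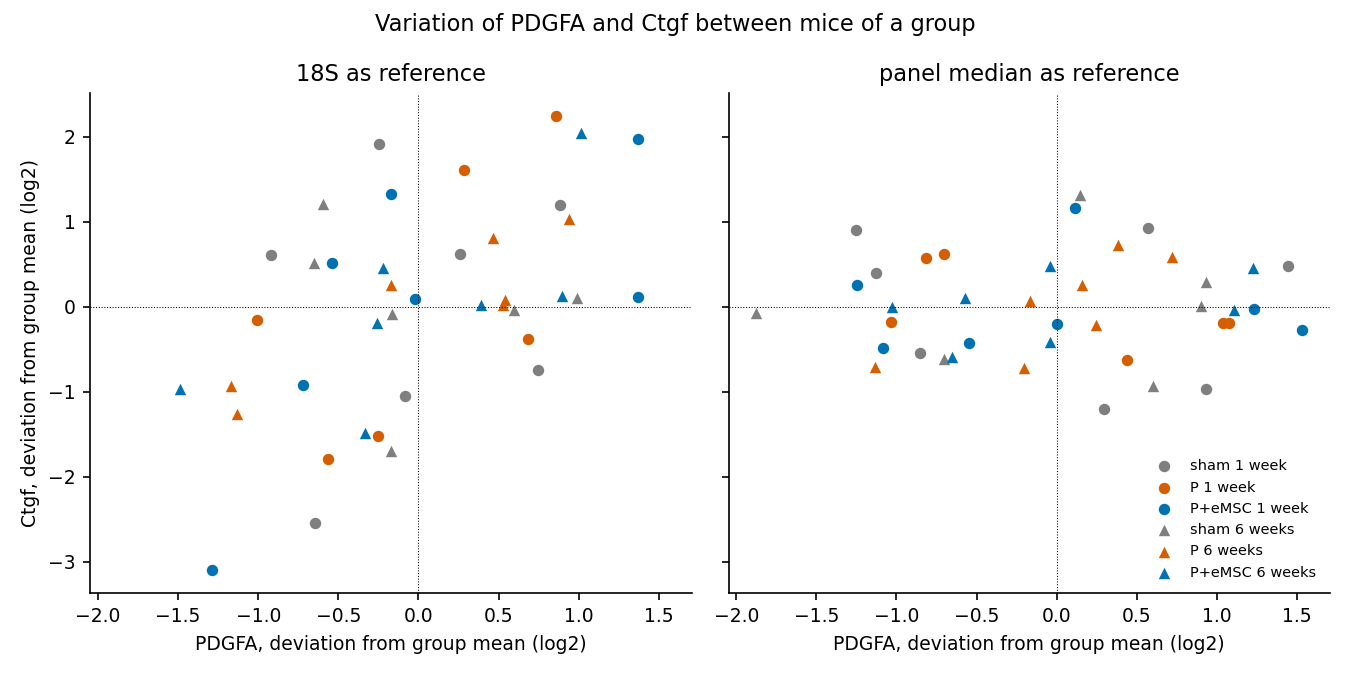
Deviation of *Ctgf* from its group mean against that of *PDGFA* (log2) in 40 mice, coloured by treatment, with circles for 1 week and triangles for 6 weeks, and with 18S (left) or the panel median (right) as the reference. The points slope upwards with 18S (r = 0.52) and not with the panel median (r = 0.024), where the *Ctgf* values also lie closer together.

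The genes most like each of them differed. By the correlation of deviations over 40 mice, *PDGFA* was most like *Tgfb2* (r = 0.74) and *Tgfb3* (0.74), ligands of the TGF-beta family, and *Tgfbr1* (0.72), the type I receptor that binds them. The same 3 genes led with the panel median as the reference, *Tgfb3* with 0.81, *Tgfbr1* with 0.75 and *Tgfb2* with 0.71, beside a median r over 53 genes of -0.20. *Tgfb3* and *Tgfbr1* are themselves among the 23 genes of that median. *Ctgf* was most like *Cdh2* (0.87), which encodes N-cadherin, and the collagen VI genes *Col6a1* (0.87) and *Col6a3* (0.82), beside a median of 0.62 over all genes. With the panel median no gene had an r above 0.24 with *Ctgf*, the first being *Cxcl12* (0.24), *Cdh2* (0.22) and *Fgfr3* (0.18).

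The 4 TGF-beta ligand and receptor genes reported (*Tgfb1*, *Tgfb2*, *Tgfb3* and *Tgfbr1*) were all in the table. At 6 weeks 3 of them (*Tgfb2*, *Tgfb3* and *Tgfbr1*) were lower in P than in sham and 0 higher, with a list median of -1.18 beside -0.83 over all genes, and 2 (*Tgfb3* and *Tgfbr1*) were higher in P+eMSC than in P, with a list median of 1.27 beside 1.15. Over all 54 genes 25.9% and 18.5% were called in these comparisons. With the panel median as the reference these list medians were -0.093 and -0.064. *Tgfb1*, *Tgfb3* and *Tgfbr1* are themselves among the genes of that reference, so small values were largely built in. *Tgfb3* shifted by -2.07 in P against sham (exact p = 0.00799, adjusted p = 0.0551) and by 2.24 in P+eMSC against P (exact p = 0.00932, adjusted p = 0.158). *Tgfbr1* shifted by -1.04 (exact p = 0.0200, adjusted p = 0.0997) and 1.39 (exact p = 0.00591, adjusted p = 0.158).

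Of 7 other growth factor and receptor genes, 6 were in the table. At 6 weeks 3 of the 6 (*Vegfa*, *Ang1* and *Fgf1*) were lower in P than in sham, with a list median of -1.45, and 1 (*Vegfa*) was higher in P+eMSC than in P, with a list median of 1.44, beside 25.9% and 18.5% called over all genes, so that the share in P+eMSC against P was near that of the panel. *Vegfa*, the main growth factor of blood vessel endothelium, shifted by -2.54 and 1.92 (exact p = 0.00799 and 0.0205, adjusted p = 0.0551 and 0.158), and *Fgf2*, a mitogen of fibroblasts and endothelial cells, by -1.20 and 1.50 (exact p = 0.181 and 0.0530). Of 9 fibroblast matrix genes, all in the table, 2 (*Timp2* and *Timp3*) were lower in P than in sham, with a list median of -0.98, and 2 (*Timp3* and *Mmp2*) were higher in P+eMSC than in P, with a list median of 1.41. Both counts were near the shares over all genes. *Timp3* and *Timp2*, inhibitors of matrix metalloproteinases, shifted by -1.84 and -1.70 against sham (exact p = 0.00133 and adjusted p = 0.0360 for each), and by 1.90 and 1.45 in P+eMSC against P (exact p = 0.0205 and 0.0541). With the panel median the medians of the growth factor list were -0.39 and 0.23, and those of the matrix list 0.16 and -0.25. *Vegfa* of the first list is among the genes of that reference. So are *Mmp2*, *Timp2*, *Timp3*, *Col6a2*, *Col6a3*, *Col1a1* and *Col3a1* of the second. The matrix list was thus set against a median made partly of its own genes.

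Markers of other cells could be followed for few types, since the lists used here held no endothelial marker and 1 epithelial marker, *Cdh1*. Of 7 leukocyte and macrophage markers 3 were in the table (*Ccr1*, *Ccr2* and *Mrc1*), and none was called in P against sham or in P+eMSC against P at 6 weeks, with list medians of -1.10 and 1.35. *Ccr2*, a chemokine receptor of monocytes, shifted by -1.10 and 1.94 (exact p = 0.142 and 0.189) and *Mrc1*, the macrophage mannose receptor CD206, by -1.27 and 1.35 (exact p = 0.142 and 0.121). *Ccr1*, a chemokine receptor of myeloid cells, ran the other way, by 0.34 and -0.49 (exact p = 0.731 and 0.805). Their summed level at 6 weeks lay between -1.16 and 2.27 in sham (log2, median 0.42). It lay between -1.43 and 2.80 in P (median 0.10) and between -2.49 and 3.40 in P+eMSC (median 0.82). These sums can be compared between groups but are not levels relative to the sham mean of the week. The epithelial marker *Cdh1* shifted by -1.30 and 1.37 (exact p = 0.366 and 0.209). Of the 3 mesenchymal markers (*Cdh2*, *Col1a1* and *Col3a1*), *Cdh2* was called lower in P than in sham, at the threshold itself (exact p = 0.0513, adjusted p = 0.198). The list medians were -0.84 and 1.43. Beside these marker counts, 25.9% and 18.5% of all 54 genes were called in the 2 comparisons. *Col3a1* and *Col1a1*, the fibrillar collagens of skin, shifted by 1.43 each in P+eMSC against P (exact p = 0.281 and 0.189). With 18S these list medians had the sign of the *PDGFA* and *Ctgf* shifts. With the panel median they were 0.15 and -0.17 for the leukocyte and 0.56 and -0.35 for the mesenchymal markers. *Ccr2*, *Mrc1*, *Col1a1* and *Col3a1* are themselves among the genes of that reference. The part of these markers in the result was not tested.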

How the data were processed

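RNA was extracted from mouse skin explants, 100 ng were made into cDNA, preamplified for 14 cycles and measured on Fluidigm dynamic arrays with TaqMan assays. The authors deposited Ct values (threshold cycles, not normalized, 999 where no Ct was called) and linear fold change ratios, which they calculated by 2 to the power of minus ΔΔCt with 18S and the sham controls. By the supplier's naming, the *Pdgfa* assay spans an exon junction, and the *Ctgf* and *Rn18s* assays are of a class that can also read genomic DNA. There is 1 value per gene and mouse and no read depth, so the number of mice limits the precision. Of the 40 deposited fold changes of each gene, 39 lay within 0.01 (log2) of those calculated from Ct, all but that of mouse 2356.

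Groups came from the deposited labels, and each mouse has its own number, so nothing was paired. Ct values were used for all tests, and undetected values were left out. Groups were compared by the Mann-Whitney U test, exact and two-sided by enumeration, on the 54 target genes (at least 4 values a group) in 9 comparisons, with Hodges-Lehmann shifts, 95% intervals and Benjamini-Hochberg adjustment over the 54 genes. Calls were made at an unadjusted p up to 0.0513, the threshold of the methods. Interactions with week were fitted over 6 groups with limma, and correlations were tested with 100000 permutations. For likeness, genes detected in at least 36 mice were ranked. The tests were checked on simulated independent genes with changes larger than the shifts of *PDGFA* and *Ctgf*. That check does not cover changes of their size or a change shared by the panel. The genes named were both growth factors, the 3 genes most like each and the first 2 of each list by the size of their shift in P+eMSC against P at 6 weeks. *Ccr1*, the genes that were called and the list genes that are part of the panel median were named after their values were seen. The 2 genes and the lists were chosen with earlier results of these data known, and 1 listed gene is not reported here. The alternatives were the panel median as reference, undetected values set 0.01 (log2) below the lowest, limma, a permutation test of the mean, other thresholds, permutation within animal number series, a median Ct of at most 25 per gene, the deposited fold changes, and leaving out mice. Leaving out mice 52 and 2356 together was added after the data were seen. Gene positions and the promoter sequence are from RefSeq (GRCm38.p6), in which *Ctgf* was matched as a synonym. The software was limma 3.58.1 in R 4.3.3, and scipy 1.17.1, pandas 2.3.3, numpy 2.4.6 and matplotlib 3.10.9 in Python 3.11.15.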

Additional observations from a re-analysis of the deposited data

How the results depend on the processing

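Of 162 values of the 2 genes under settings other than leaving out 1 mouse, 143 kept their direction and their side of the threshold. This count does not measure robustness, since several settings could hardly change a value. The median Ct limit left both genes in with the same shifts and p values, and the limit of 0.05 was read from the same p values. The deposited fold changes differed only for mouse 2356, and undetected values only in mouse 52. Most of the comparisons were also not called to begin with. Set against the panel median, the *PDGFA* shifts were -0.61 (P against sham, 1 week), -0.56 (P against sham, 6 weeks) and -0.25 (P+eMSC against P, 6 weeks), and those of *Ctgf* 0.14 (P against sham, 6 weeks), 0.031 (P+eMSC against P, 6 weeks) and -0.052 (1 week). None was called, the interactions of P with sham became 0.44 and 0.74 and that of *PDGFA* in P+eMSC against P -0.44, and the correlation of the 2 genes became 0.024. The genes called then numbered 7 in P against sham at 6 weeks and 3 at 1 week, all higher, 2 in P+eMSC against P (1 higher, 1 lower) and 5 at 1 week, all lower, 1 and 2 in P+eMSC against sham at 1 and 6 weeks, and 1 in each of sham and P+eMSC over time. At an adjusted p below 0.05 the shifts of -1.10, -1.48, -1.04, 1.17 and 1.27 were not called, and 2 genes in P against sham at 6 weeks and 0 elsewhere were. In limma *PDGFA* in P against sham at 1 week (-1.08) and *Ctgf* at 6 weeks (-1.12) and in P+eMSC against P (1.40) were not called, and 0 genes were called in P against sham at 1 week and in sham over time. *Ctgf* in sham over time became 0.19 in limma and by the mean, and 0.093 within the number series. By the mean, 1 gene was called in sham and 1 in P+eMSC over time. Within the series, *PDGFA* in P+eMSC against sham at 1 week was called (-0.90), the 1 gene called there, and the *Ctgf* interaction of P with sham was 0.022 with the series as a covariate. With undetected values set below the lowest, *Ctgf* in P over time became -0.084 and 1 gene was called, as it was without mice 52 and 2356. The causes of these changes were not tested. The *Gapdh* reference was not run, since no *Gapdh* row is in the table used here.

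Leaving out each mouse in turn gave, for *PDGFA*, -1.25 to -0.97 in P against sham at 1 week, -0.30 to 0.11 in P+eMSC against sham at 6 weeks and 0.85 to 1.38 in P+eMSC over time. For *Ctgf* it gave -1.80 to -0.54, -0.016 to 0.34 and 0.95 to 1.33 in the same comparisons, -0.15 to 0.72 in P+eMSC against P at 1 week, -0.47 to 0.49 in sham over time and -0.45 to 0.63 in P over time. For *Ctgf* relative to *PDGFA* it gave -0.20 to 0.50 in P against sham at 1 week, -0.054 to 0.37 in P+eMSC against P at 6 weeks, -0.94 to 0.57 in P over time and -0.067 to 0.54 in P+eMSC over time. The genes called ranged from 1 to 4 in P against sham at 1 week, from 8 to 19 in P+eMSC against P at 6 weeks (19 without mouse 60, 18 without mouse 2210), from 0 to 5 in sham over time, from 0 to 9 in P+eMSC over time (9 without mouse 2358) and from 0 to 1 in P+eMSC against sham at 6 weeks, in P+eMSC against P at 1 week and in P over time.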
